A study of Mus musculus with 4 samples.

Results

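The collagen and fibronectin receptor integrins described here are 10 genes, Itga1, Itga2, Itga3, Itga5, Itga9, Itgav, Itgb1, Itgb5, Itgb6 and Itgb8, followed in mouse skin epithelial cells that had been carried through serial culture. They were chosen by name, and every non-control probe whose gene name in the array design is one of the 10 was taken, which gave 14 of 39429 probes and 10 of 31896 genes. The 15p RNA came from CD49f+ CD34+ cells sorted after the 15th serial culture, each culture lasting 10 days with Wnt-3a on 60-mm dishes coated with collagen I. The 0p RNA came from CD49f+ CD34+ cells sorted from primary skin epithelial cells. Both came from adult C3H/HeN mice, and the labels list Wnt-3a, a secreted Wnt ligand, as the treatment of both RNAs without saying whether the 0p cells met it before RNA was taken. Each of 2 biological replicates was hybridised to 2 two-colour Agilent arrays with the dyes exchanged, so that 15p RNA carried Cy5 on one array and Cy3 on the other and 0p RNA carried the opposite dye. Arrays are named by the dye of the 15p RNA, as the Cy5 array or the Cy3 array of a replicate. Separate animals or cultures behind the 2 replicates are not stated, so the spread between these 2 samples may be technical. Each limma p-value and interval below rests on that spread pooled over all tested genes (8.88 prior degrees of freedom), more than on the gene's own (1 residual).

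Integrins are receptors of an alpha and a beta chain that hold a cell to its surrounding matrix and pass signals to the actin cytoskeleton. The alpha chain largely sets which ligand is bound, and the short cytoplasmic tail of most beta chains recruits talin and kindlin through Asn-Pro-X-Tyr motifs. In epidermis, Itgb1 pairs with several alpha chains to bind collagens, fibronectin and basement membrane laminin, whereas Itgav pairs with Itgb5, Itgb6 or Itgb8 to bind vitronectin, fibronectin or the latent form of TGF-beta. Itga6, the CD49f of the sort, pairs with Itgb4 in hemidesmosomes.

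Itgb1 and Itgb6 each had 2 probes, and their sequences are shown because the probes of one gene read different parts of its mRNA and are compared below. Capitals mark the codons of an Asn-Pro-X-Tyr motif, each sequence runs 5′ to 3′ on the mRNA strand, and positions are those of the array design in build mm9.
Itgb1 probe 1: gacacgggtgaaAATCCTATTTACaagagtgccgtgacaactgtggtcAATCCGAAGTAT
Itgb1 probe 2: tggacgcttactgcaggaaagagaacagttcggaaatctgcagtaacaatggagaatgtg
Itgb6 probe 1: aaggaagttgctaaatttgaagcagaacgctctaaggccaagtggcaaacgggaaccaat
Itgb6 probe 2: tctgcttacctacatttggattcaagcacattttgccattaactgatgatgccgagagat
Itgb1 probe 1 lies within chr8:131250081-131255976 on the plus strand, a span longer than the 60 bases of the probe, and probe 2 lies at chr8:131246349-131246408. The first holds 2 Asn-Pro-X-Tyr motifs that start at bases 13 and 49, in one reading frame, and so reads the part of the mRNA that encodes the cytoplasmic tail. A match to this motif on either strand occurs in 165 of the 39429 probes (0.418%), and 1 probe holds 2 or more as printed. Itgb6 probe 1, within chr2:60438632-60443247 on the minus strand, reads the part that encodes the cytoplasmic tail of Itgb6, and probe 2 lies at chr2:60492788-60492847. Neither Itgb6 probe nor the second Itgb1 probe holds the whole motif.

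Between 55.5% and 65.1% of probe spots were well above background in the 15p channel and between 57.0% and 68.3% in the 0p channel over the 4 arrays, and no spot was saturated. The number of replicates, 2 with 2 arrays each, limits the precision. Once every ratio was turned to 15p over 0p, the 2 arrays of a dye-swapped pair correlated at r = -0.55 in replicate 1 and r = -0.40 in replicate 2 across 17376 genes, while the 2 Cy5 arrays correlated at r = 0.27 and the 2 Cy3 arrays at r = 0.41. Ratios were thus more alike within a dye orientation than within a replicate, and the means of the 2 replicates correlated at r = 0.089 (all across genes, which cannot serve as independent replicates). The files cannot show whether the labelled dyes of each array are right. If the array of the same dye orientation were labelled the wrong way round in both pairs, the mean ratio and the dye difference given below would change places, up to sign and a factor of 2. The Cy5 array of replicate 2 stood apart, with an SD of 0.29 over its log2 ratios, against 0.13 to 0.14 on the other 3 arrays. Of the basal keratinocyte markers, 8 of 8 were measured and none passed the test. Of the 5 bulge markers, Sox9 and Nfatc1 were measured on all 4 arrays, Lgr5 and Lhx2 were not well above background in either RNA on any array, and Cd34, which the sort used, was well above background on 1 array and there only in the 0p RNA.

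Both RNAs gave signal well above background for Itga3, Itga5, Itgav, Itgb1, Itgb5 and Itgb6, and neither gave steady signal for Itga1, Itga2, Itga9 or Itgb8. The first 6 genes had 9 probes, all well above background in both RNAs on all 4 arrays, and these genes were tested. None of the 6 passed the test, with 0 higher and 0 lower in 15p RNA at an adjusted p under 0.05 (limma, Benjamini-Hochberg over 17376 genes). Over all genes the share called was also 0% in each direction. The 95% intervals of all 6 lay between 0.869-fold and 1.24-fold, inside 1.5-fold either way, as did those of 99.7% of all genes tested.

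**Figure D1:**
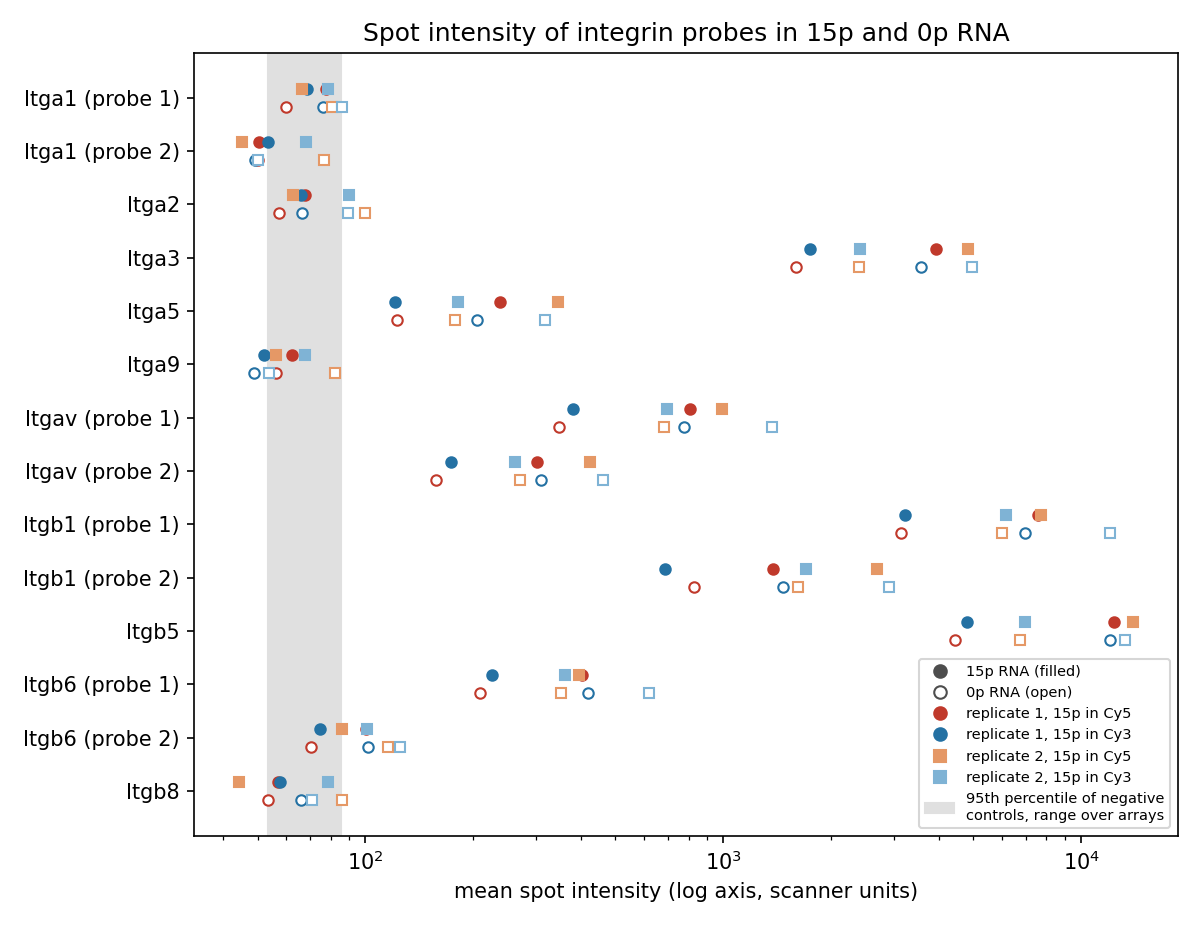
Mean spot intensity of each of the 14 integrin probes on a log axis, in scanner units before normalisation. Filled symbols are 15p RNA and open symbols 0p RNA, colour and shape give the array, and the grey band spans the 95th percentiles of the negative control spots. Probes of Itga1, Itga2, Itga9 and Itgb8 sit at or near the band, and the other probes except the second of Itgb6 sit above it.

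The collagen-binding alpha chains Itga1 and Itga2 stayed near background in 15p and 0p RNA. Itga1, a chain that binds basement membrane collagen with Itgb1, gave mean spot intensities of 77.4, 68.9, 66.7 and 78.8 in 15p RNA, against 60.0, 76.0, 80.7 and 86.2 in 0p RNA. All lists of 4 values give the Cy5 and then the Cy3 array of replicate 1, followed by the Cy5 and the Cy3 array of replicate 2. This Itga1 probe was well above background on 1 of 4 arrays in 15p RNA and on 2 of 4 in 0p RNA, and the second Itga1 probe on none in either. Itga2, the chain of the main receptor for fibrillar collagen in keratinocytes, gave 67.7, 66.1, 62.9 and 90.1 in 15p RNA, against 57.6, 66.3, 100.1 and 89.6 in 0p RNA. It was well above background on 1 array in 15p RNA and on 2 in 0p RNA, all of replicate 2, and its values in 15p and 0p RNA overlapped. The 15p cells had grown on collagen I, and neither chain met the detection rule for a test. The signal of the first Itga1 probe exceeded that of 95% of negative controls on its own array and channel in 7 of 8 values, that of the second in 0 of 8, and that of Itga2 in 8 of 8, so that Itga2 signal was low but above those spots.

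Itga9 and Itgb8 were not well above background in either RNA on any array. Itga9, whose receptor with Itgb1 binds tenascin and one form of fibronectin, gave intensities of 52.0 to 67.9 in 15p RNA, against 48.9 to 82.1 in 0p RNA. Itgb8, which with Itgav binds latent TGF-beta, gave 44.4 to 78.9 in 15p RNA, against 53.5 to 86.1 in 0p RNA. The 95th percentile of negative control spots was 54.8 to 68.6 in the 15p channel and 53.6 to 85.5 in the 0p channel. Set against the percentile of its own array and channel, Itga9 lay above it in 3 of 8 values and Itgb8 in 4 of 8 over both RNAs. The 4 genes of this paragraph and the one before have an upper bound on signal here rather than a level, and a difference between 15p and 0p RNA was not detectable. Fewer cells with an mRNA and less mRNA in each cell cannot be told apart in these bulk RNAs, here and for all genes below.

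Itga3, the alpha chain of an epidermal laminin receptor, was measured at chr11:94906334-94906393 on the minus strand. Its intensity was 3919.7, 1753, 4824 and 2412 in 15p RNA, against 1598, 3563, 2393 and 4968 in 0p RNA. The 2 RNAs overlapped, and in each the higher values were those of the arrays where it carried Cy5. With the dyes exchanged, overlap of such unnormalised values, here and for the genes below, is no comparison of 15p with 0p RNA. After background correction and loess normalisation, which removes the overall difference between dyes on each array, its log2 ratios of 15p over 0p were 0.037, 0.14, 0.53 and -0.25. They were positive on 3 arrays and negative on the Cy3 array of replicate 2. The mean log2 ratio was 0.11 ± 0.036 (SD, n = 2), a 1.08-fold ratio with a 95% interval of 0.994 to 1.18 (limma adjusted p = 0.749).

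Itga5, the alpha chain of the principal fibronectin receptor, had the largest mean ratio of the 6 measured genes and the largest SD, both between replicates and over the 4 arrays. Its probe at chr15:103175022-103175081 on the minus strand gave 237, 121, 345 and 181 in 15p RNA, against 123, 205, 179 and 318 in 0p RNA. Values of 15p and 0p RNA overlapped, and Cy5 was the brighter channel on every array. Its log2 ratios of 15p over 0p were 0.18, -0.084, 0.85 and -0.27, positive on both Cy5 arrays and negative on both Cy3 arrays. The mean was 0.17 ± 0.17 (SD, n = 2), a 1.12-fold ratio with a 95% interval of 1.02 to 1.24, and it did not pass the test (limma adjusted p = 0.749). The replicate means were 0.049 and 0.29. Itga5 was the 1 member of 6 at an unadjusted p under 0.05, where 6.31% of all genes stood. That count depended on the processing. It was 0 with Agilent processed signals, with the deposited value table and in fits of all 4 arrays with a dye term. It was 1 with normexp offset 16 and 3 under median centring in place of loess.

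Itgav, the alpha chain shared by the vitronectin and TGF-beta binding receptors, did not differ beyond the spread of its arrays. Probe 1, at chr2:83646133-83646192, gave 806, 380.3, 994 and 695 in 15p RNA, against 349, 776, 682 and 1367 in 0p RNA. The 2 RNAs overlapped, with log2 ratios of 0.11, -0.015, 0.19 and -0.24. Their mean was 0.011 ± 0.053 (SD, n = 2), with a 95% interval of -0.11 to 0.13 on the log2 scale (limma adjusted p = 0.972). Probe 2, at chr2:83643905-83643964, had a mean log2 ratio of 0.078 ± 0.077 (SD, n = 2). The mean of probe 2 was thus the higher, by less than its own SD.

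Itgb1, the beta chain common to the collagen and fibronectin receptors, was bright in both RNAs and had a mean ratio slightly below 1. Its probe 1, which reads the cytoplasmic tail, gave 7569, 3218, 7728 and 6163 in 15p RNA, against 3139, 6958, 6019 and 12045 in 0p RNA. The log2 ratios were -0.043, 0.10, -0.18 and -0.13, negative on 3 of 4 arrays, and the 2 RNAs overlapped. The mean log2 ratio was -0.065 ± 0.13 (SD, n = 2), with a 95% interval of -0.20 to 0.072 (limma adjusted p = 0.837). Probe 2 gave log2 ratios of -0.46, -0.0010, 0.29 and 0.012, with a mean of -0.040 ± 0.27 (SD, n = 2). The 2 probes differed in sign within each replicate, since the replicate means of probe 1 were 0.029 and -0.16 and those of probe 2 were -0.23 and 0.15.

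Itgb5, the beta chain that with Itgav binds vitronectin, was measured at chr16:33949123-33949182 on the plus strand. It gave 12371, 4799, 13945 and 6977 in 15p RNA, against 4444, 12035, 6745 and 13267 in 0p RNA. Whichever RNA carried Cy5 was the brighter by a wide margin, and the 2 RNAs overlapped. The log2 ratios were 0.12, -0.065, 0.46 and -0.083, positive on the Cy5 arrays and negative on the Cy3 arrays. Their mean was 0.11 ± 0.11 (SD, n = 2), with a 95% interval of -0.026 to 0.24 (limma adjusted p = 0.752).

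Itgb6, an epithelial beta chain that with Itgav binds fibronectin and latent TGF-beta, had the smallest SD over the 4 arrays of the 6 genes. Probe 1, in the tail, gave 404, 225, 395 and 361 in 15p RNA, against 209, 419, 353 and 620 in 0p RNA, which overlapped. Its log2 ratios were -0.032, 0.039, -0.056 and -0.11. The mean was -0.039 ± 0.060 (SD, n = 2), with a 95% interval of -0.16 to 0.085 (limma adjusted p = 0.885). The dimmer probe 2, at intensities of 75.0 to 101 in 15p RNA, against 70.6 to 125 in 0p RNA, had a mean log2 ratio of 0.0098 ± 0.037 (SD, n = 2). Both probes stayed within 0.11 of 0 on the log2 scale on every array.

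**Figure D2:**
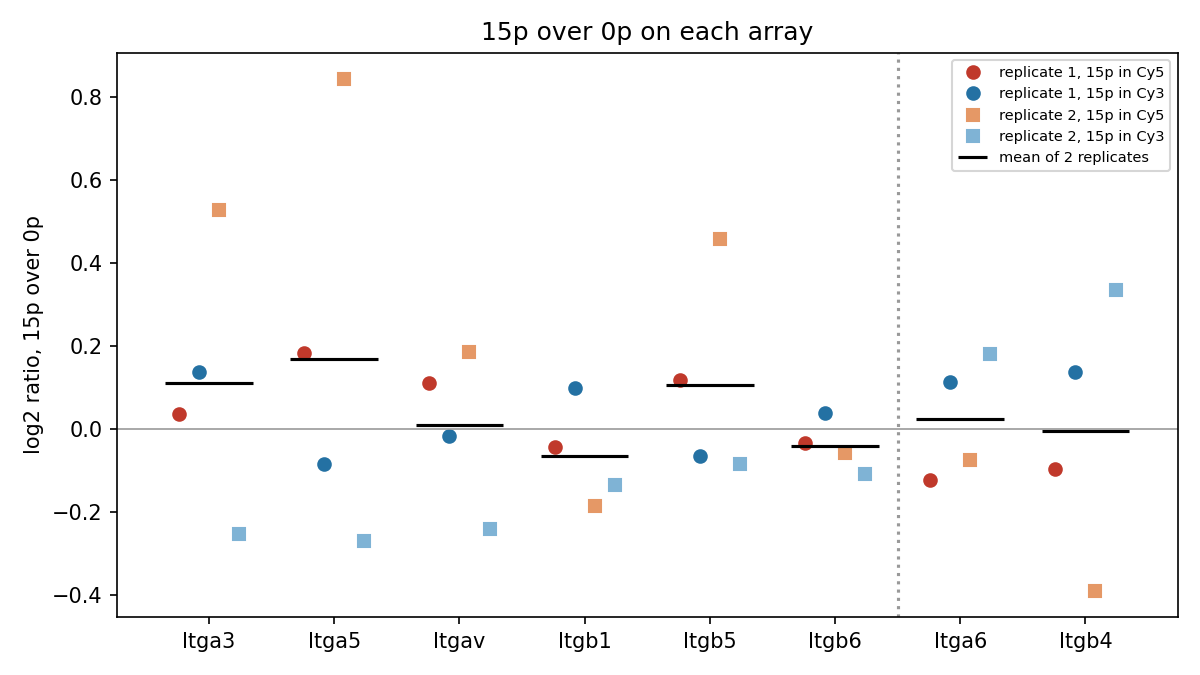
Log2 ratio of 15p over 0p on each of the 4 arrays for the 6 tested integrins and, right of the dotted line, for Itga6 and Itgb4; bars are means of the 2 replicates. All 6 members are below 0 on the Cy3 array of replicate 2 (15p in Cy3). Itga3, Itga5, Itgav and Itgb5 have their highest value on the Cy5 array of replicate 2.

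**Figure D3:**
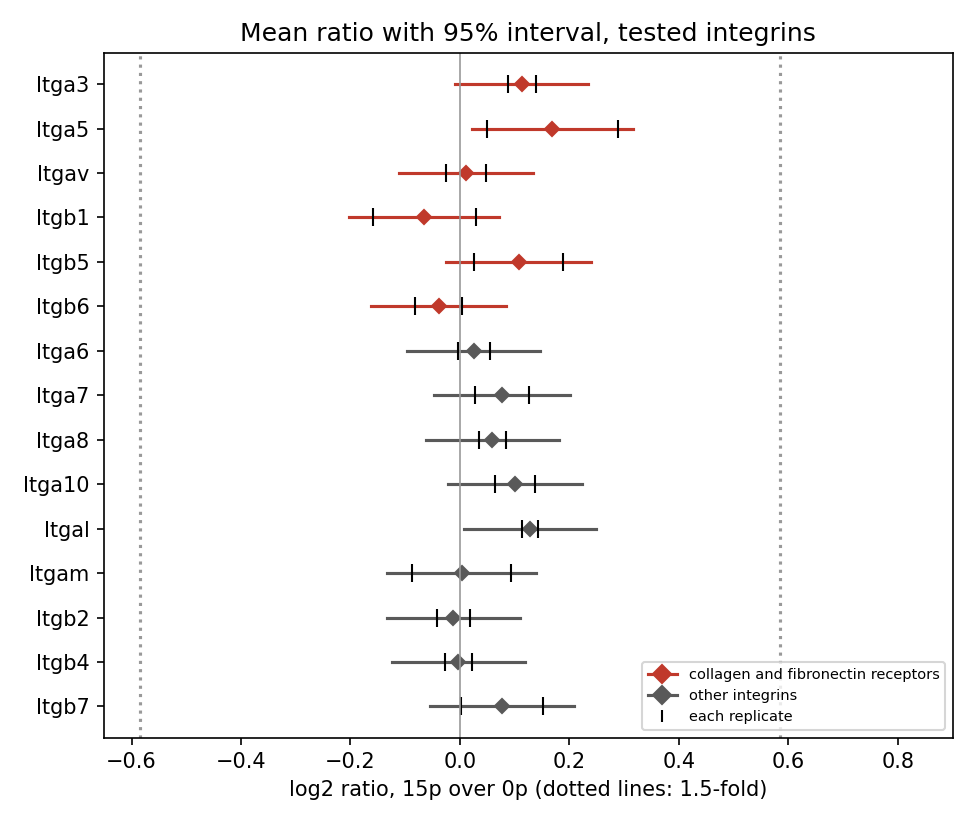
Mean log2 ratio of 15p over 0p with its limma 95% interval for the 6 tested members and the 9 other integrins tested, with ticks at the 2 replicate means. Every interval lies inside the dotted lines at 1.5-fold, and those of Itga5 and Itgal lie above 0.

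Read across the 6 genes, 4 mean ratios were positive and 2 negative, with a median of 0.059 against 0.0025 over all genes. The median size of the mean ratio without its sign was 0.086, against 0.046 over all genes. None of the 6 kept 1 sign on all 4 arrays, a pattern that 6.78% of all genes showed. Itga5, Itgav and Itgb5 changed sign with the dye, being positive on both Cy5 arrays and negative on both Cy3 arrays, and 32.3% of all genes had a sign that followed the dye. Of the 6, 4 had their largest ratio without sign on the Cy5 array of replicate 2, as did 56.8% of all genes, so that this count is near the background. The median of the 6 was 0.074, 0.012, 0.32 and -0.19 on the 4 arrays, and on the last all 6 were negative, where 49.2% of all genes were.

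The dye difference, the mean log2 ratio of the Cy5 arrays minus that of the Cy3 arrays, was larger in size than the mean ratio for 5 of the 6 genes. Over all genes its median size was also the larger, at 0.15 against 0.046 for the mean ratio. The share of all genes with the larger dye difference was not taken, so this count does not set the members apart. The dye difference was 0.69 for Itga5, larger in size than that of 98.1% of genes, 0.36 for Itgb5, 0.34 for Itga3 and 0.28 for Itgav. It was -0.098 for Itgb1 and -0.010 for Itgb6. The median size was 0.31 over the 6 genes, against 0.15 over all genes. An equal dye effect in both arrays of a pair cancels in the mean, and an unequal one does not; whether it was equal was not tested. The SD of the log2 ratio over the 4 arrays was 0.49 for Itga5, 0.32 for Itga3, 0.25 for Itgb5, 0.19 for Itgav, 0.13 for Itgb1 and 0.061 for Itgb6, against a median of 0.14 over all genes.

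**Figure D4:**
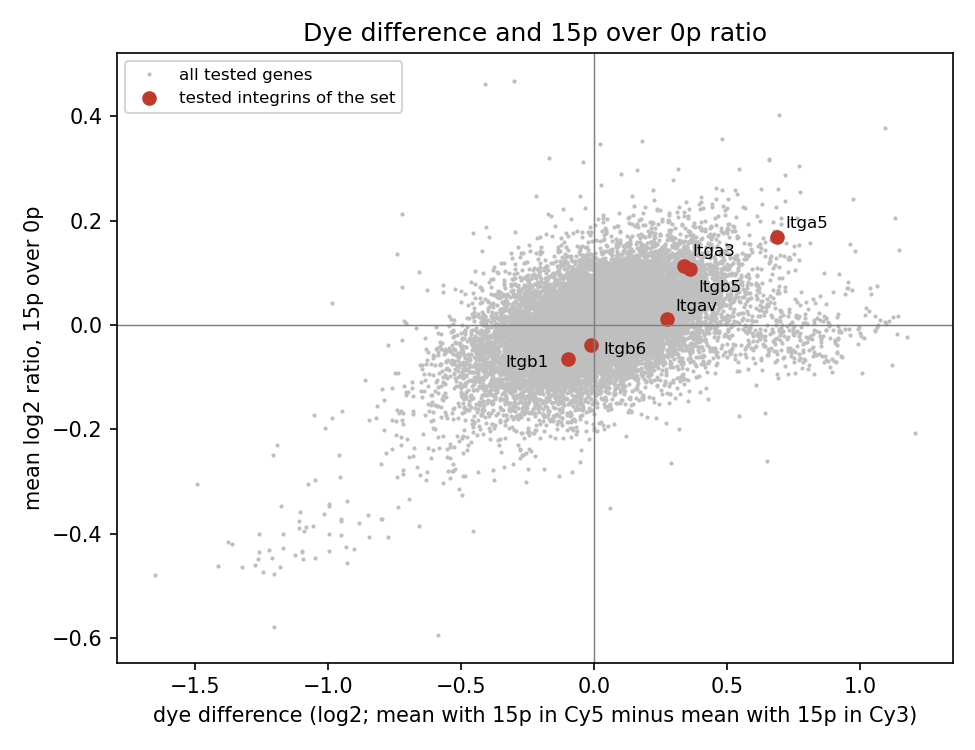
Mean log2 ratio of 15p over 0p against the dye difference in log2 for all 17376 tested genes (grey) and the 6 tested integrins (red). Itga5 lies far to the right at a dye difference of 0.69 and a mean ratio of 0.17, and Itgb1 and Itgb6 lie near the origin.

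For 3 genes, the call changed in 1 fit, which left out an array and used another model than the main fit. All 4 arrays fitted with a dye term called none of the 6 genes. Without the Cy5 array of replicate 1, a fit of the other 3 arrays with a dye term called 3 of the 6 genes higher in 15p RNA, where it called 8.83% of all genes higher. The log2 ratio was then 0.33 for Itga5, 0.24 for Itga3 and 0.19 for Itgb5. In this fit the lone Cy5 array was the one that stood apart, and it added nothing to the residual spread, which came from the 2 Cy3 arrays and gave every gene 1 SE of 0.064. Replicate 2 supplied 2 of the 3 arrays, so these calls cannot serve as evidence of a difference between 15p and 0p RNA. Leaving that array out instead gave a log2 ratio of -0.0098 for Itga3, with none of the 6 genes called.

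None of the integrins outside the set passed the test either. Of 17 listed, 9 were tested, 7 with a positive and 2 with a negative mean ratio. Their median log2 ratio was 0.059, the range running from -0.012 to 0.13. Itgal, the alpha chain of a leukocyte integrin, was at 0.13 ± 0.021 (SD, n = 2) and positive on all 4 arrays, and Itga10, a collagen-binding chain of cartilage, was at 0.10 ± 0.052; both failed the test. Itga6, which the sort of both RNAs used and whose level is therefore no finding, was at 0.025 ± 0.041 (SD, n = 2). Itgb4, its hemidesmosome partner, was at -0.0032 ± 0.035 (SD, n = 2). Both were positive on the Cy3 arrays and negative on the Cy5 arrays, with dye differences of -0.24 for Itga6 and -0.48 for Itgb4, opposite in sign to those of Itga5 and Itgb5.

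Genes that act with these integrins were measured too, with none passing the limma test in any list. An unadjusted p under 0.05 was reached by 3 adaptors, 1 ligand and 1 of the other matrix receptors, beside 1 of the other integrins. That is 3 of 32, 1 of 18, 1 of 13 and 1 of 9 tested, where 6.31% of all genes stood. Among adhesion adaptors and signalling proteins, which couple the beta tail to actin and to kinases, 32 of 38 were tested, 16 with a positive and 16 with a negative mean, and their median log2 ratio was -0.00056. The largest in size were the adaptor Crk at -0.28 ± 0.22 (SD, n = 2) and the actin regulator Vasp at 0.19 ± 0.035 (SD, n = 2). Crk had log2 ratios of -0.26, 0.015, -0.82 and -0.043, so that the array that stood apart gave its lowest value. Vasp had 0.23, 0.20, 0.34 and -0.012.

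Among ligands, 18 of 26 were tested, 8 with a positive and 10 with a negative mean, at a median of -0.011. The matricellular protein gene Ccn1, listed in the array design as Cyr61, was at 0.18 ± 0.20 (SD, n = 2), and Tgfb1, whose latent form is an Itgav ligand, was at 0.12 ± 0.083 (SD, n = 2). Both were highest on the array that stood apart, at 0.69 and 0.63, against -0.056 and -0.26 on the Cy3 array of replicate 2. Among other matrix receptors and partners, all 13 were tested, 8 with a positive and 5 with a negative mean, at a median of 0.019. The heparan sulphate proteoglycan Sdc4 was at 0.16 ± 0.19 (SD, n = 2), with 0.53 on the array that stood apart. Dag1, the dystroglycan gene, was at 0.11 ± 0.0028 (SD, n = 2) with single arrays between -0.11 and 0.33.

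Markers of cells that the sort could hold were compared in the same way, and none passed the test. An unadjusted p under 0.05, where 6.31% of all genes stood, was reached by 3 of 8 basal keratinocyte markers, 1 of 2 bulge markers tested and none of the fibroblast, endothelial, immune, melanocyte or smooth muscle markers. The 8 basal keratinocyte markers had a median log2 ratio of 0.054, 6 positive and 2 negative, ranging from -0.026 to 0.20. The 2 largest in size were Cdh3 at 0.20 ± 0.17 and Krt14 at 0.19 ± 0.12 (SD, n = 2 each). On the array that stood apart they were at 1.10 and 0.73, and on the Cy3 array of replicate 2 at -0.45 and -0.18. Sox9 was at -0.38 ± 0.60 (SD, n = 2), a mean set by -1.56 on the array that stood apart, and Nfatc1 was at -0.053 ± 0.046. Of 9 fibroblast markers 2 were tested, Col3a1 at 0.088 ± 0.044 and Twist2 at 0.030 ± 0.048, and 5 were not well above background in any channel. Of 8 endothelial markers 4 were tested, with Flt1 at -0.13 ± 0.14 and Eng at 0.088 ± 0.23. Of 9 immune markers 6 were tested, with Fcer1g at -0.060 ± 0.095 and H2-Eb1 at 0.055 ± 0.12. Of 6 melanocyte markers 4 were tested, with Mlana at 0.083 ± 0.020 and Mitf at -0.044 ± 0.031, and of 4 smooth muscle markers Acta2 alone was tested, at 0.067 ± 0.027. The part of other cell types in the integrin signal was not tested.

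The genes most like Itga5, Itga3 and Itgb5, the 3 members with the largest SD over the 4 arrays, were found by the root mean square difference of their log2 ratios among all tested genes. For Itga5 they were Btbd2 at 0.041 and Lgals9 at 0.042. For Itgb5 they were Tmem201 at 0.012 and Bag2 at 0.013. For Itga3 the nearest features carried no gene symbol, at 0.036 and 0.038. With 4 arrays from 2 replicates, and an array that stood apart, this likeness describes a shared pattern over arrays and dyes only.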

How the data were processed

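Per the file headers, the authors scanned 4 Agilent arrays with Feature Extraction 10.7.3.1 (also named in the submitters' processing notes) and deposited for each spot the mean intensity and local background of both dyes, flags for signal well above background, and a log10 ratio of red over green. The authors' deposited value table holds the same log10 ratios, within 0.0045, with a median of 0 on each array. Per the labels, 200 ng of total RNA was used for each labelling and 825 ng of cRNA for each hybridisation.

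From the deposited intensities, log2 ratios were computed with limma 3.58.1 (R 4.3.3) by normexp correction with offset 50 and loess within each array, with control spots at weight 0 and irregular spots left out. Ratios were turned to 15p over 0p by the labelled dyes and averaged over the dye swap of each replicate, giving n = 2. A probe was kept if one RNA, 15p or 0p, was flagged well above background 4 times out of 4 (21660 of 39429), and the brightest probe represented a gene (17376 genes). RefSeq named 26055 probes. lmFit and eBayes tested the mean against 0, two-sided, with 1 residual and 8.88 prior degrees of freedom, Benjamini-Hochberg adjustment and a threshold of 0.05. The fit was tested on simulated data. Replicates share numbers across arrays but did not deviate together (r = -0.26 across genes), and each replicate lay on its own slide, so that slide and replicate cannot be told apart.

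The 10 members and all lists were chosen with earlier results of these data known. Named are all members, Itga6, Itgb4, up to 4 called genes of each list or else the 2 with the largest mean ratio in size, and the 2 genes most like each of 3 members. Protein sequences were not used here.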

Additional observations from a re-analysis of the deposited data

How the results depend on the processing

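Of 15 alternative fits with a test, 14 called 0 of the members, but these 14 are not separate checks. Scaling of average intensities between arrays after loess (Aquantile) left every ratio as it was. The deposited value table gave almost the same ratios as the Agilent processed signals, and the crossed pairing repeated the replicate block fit. The exception, without the Cy5 array of replicate 1, was a fit in which 1 array alone held the Cy5 orientation and added no spread. Of 102 alternative values for single members, 96 were scored as unchanged in call and direction. Values without a whole replicate had no test and were scored as unchanged whatever their sign. Fits of all 4 arrays with a dye term, paired or not, and Aquantile return the main ratio by construction, so its direction could not change. Reversed signs were -0.045 for Itgav without the Cy3 array of replicate 1, and -0.0098 for Itga3 and -0.0079 for Itgav without the Cy5 array of replicate 2, both fits of fewer arrays. Under median centring in place of loess the sign of 6 tested members followed the dye, against 3 in the loess values and 2 with Agilent processed signals; 0 kept 1 sign under each. With the replicate block beside a dye term, 0 members were called and Itga5 stayed at 0.17, while 7 genes of all were called higher and 53 lower; the crossed pairing, chosen after seeing the data, gave the same counts. Over all genes, 1535 were called higher and 1585 lower without the Cy5 array of replicate 1, 42 and 46 without the Cy5 array of replicate 2, 0 and 0 without the Cy3 array of replicate 1, and 0 and 1 without that of replicate 2. Unadjusted p under 0.05 held for 1096 genes, against 90 to 5311 under other fits, the highest being that without the Cy5 array of replicate 1. Without the filter on dim probes, ratios were 0.11 for Itga1, 0.085 for Itga2, 0.018 for Itga9 and -0.035 for Itgb8, with none called. Without replicate 1 and without replicate 2 in turn, values with no test, Itga5 was at 0.29 and 0.049, and Itgav (-0.026 and 0.048), Itgb1 (-0.16 and 0.029) and Itgb6 (-0.082 and 0.0035) differed in sign. For the 4 dim genes, signal near background limits what can be seen.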
